A study of Homo sapiens with 6 samples.

Results

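HSPA5, HSP90B1, PDIA4, CALR, DNAJB9, SDF2L1, HERPUD1, XBP1, ATF6 and EDEM1 were analysed as genes of endoplasmic reticulum (ER) protein folding and of the ATF6 and XBP1 branches of the unfolded protein response. They were taken by symbol, and all 10 were found among the 26364 gene symbols listed. RNA sequencing was done on A673/TR/shEF cells, a line made from the Ewing sarcoma line A673 that carries a tet repressor and a doxycycline-inducible shRNA against the EWSR1::FLI1 mRNA. EWSR1::FLI1 is the fusion oncoprotein of these tumours. In 3 libraries the cells were left untreated (EWSR1::FLI1 high), and in the other 3 doxycycline was given at 1 µg/mL over 72 h (the EWSR1::FLI1 low group). Both groups carried the shRNA construct and were grown with serum and the same selection antibiotics, so the comparison holds doxycycline and the loss of the fusion together. All libraries come from a single cell line, and no doxycycline-treated line without the shRNA is analysed here.

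The ER folds proteins that are secreted or placed in membranes. HSPA5 (BiP) binds unfolded chains and holds the stress sensors ATF6, IRE1 (ERN1) and PERK (EIF2AK3) inactive; when unfolded chains accumulate, ATF6 is cut to a transcription factor, IRE1 splices XBP1 mRNA, and PERK favours translation of ATF4. ATF6 and spliced XBP1 switch on chaperone and degradation genes through short promoter elements.

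The promoter elements are shown first because they group the 10 genes by a feature of the sequence alone. Windows from 250 bases before to 50 bases after each RefSeq transcription start (table build GRCh38.p14) were searched on both strands, and all 12 windows of the 10 genes were placed by exact match on GRCh37. The ER stress response element (ERSE) was searched as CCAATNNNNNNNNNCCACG and the shorter ERSE-II as ATTGG and CCACG separated by any single base. ERSE was present in 27 of 35116 promoter windows (0.0769%), and 4 of the 10 genes had it. ERSE-II was present in 19 windows (0.0541%), and 2 of the 10 genes had it. The 10 genes were picked as genes of branches that act through such elements. Their counts beside these shares are thus descriptive and test nothing. The shares are per window, and the 10 genes have 12 windows. Each site is printed on the strand of its gene with the matched element in capitals, and elements on the opposite strand appear as their reverse complement.
HSPA5 ERSE, chr9:128003664-128003693, minus strand: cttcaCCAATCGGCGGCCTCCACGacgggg
HSP90B1 first ERSE, chr12:104323989-104324018, plus strand: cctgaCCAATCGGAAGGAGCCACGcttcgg
HSP90B1 second ERSE, chr12:104324094-104324123, plus strand: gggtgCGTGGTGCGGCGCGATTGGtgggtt
CALR ERSE, chr19:13049193-13049222, plus strand: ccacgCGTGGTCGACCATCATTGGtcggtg
XBP1 ERSE, chr22:29196585-29196614, minus strand: gctggCCAATCGCGGAGGGCCACGaccgta
HERPUD1 ERSE-II, chr16:56965928-56965957, plus strand: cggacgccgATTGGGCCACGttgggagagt
SDF2L1 ERSE-II, chr22:21996394-21996423, plus strand: cctcggaagCGTGGACCAATcaaaaccctc

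Sites are given on GRCh37, as are all gene positions. The elements of HSPA5, CALR, HERPUD1 and SDF2L1 lay upstream of the annotated gene span, with printed sites ending 3, 170, 97 and 168 bases from it, respectively. Both HSP90B1 sites overlapped an annotated exon of that gene, and the XBP1 site touched the 5′ edge of its gene. Counted from the RefSeq start, the matched elements began 66 bases upstream in HSPA5, 194 and 89 bases in HSP90B1, 225 in CALR, 52 in XBP1, 117 in HERPUD1 and 188 in SDF2L1. The XBP1 target element searched as TGACGTGG was in 0.729% of all windows and in 0 of the 10 genes. Its core, ACGTGG, was in 9.72% of windows and in 3 of the 10, namely HSP90B1, DNAJB9 and HERPUD1, where in HERPUD1 it overlaps the ERSE-II. PDIA4, ATF6 and EDEM1 had none of these letter strings in the window searched. A match of letters is a description of the window and not evidence of binding.

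Whole read counts recovered from the deposited values ranged from 6980361 to 16658933 per library. EWSR1::FLI1 low replicate 1 had the fewest reads and the lowest summed FPKM (fragments scaled to transcript length and library size), 255956 against 334614 to 366060 in the others. Replicates in the EWSR1::FLI1 low group also differed more from each other than those in the EWSR1::FLI1 high group, with a chi-square per degree of freedom of 20.2 to 31.5 against 4.25 to 6.27. FLI1, the 3′ partner of the fusion, checked the labels. It was at 11.3, 12.7 and 14.2 FPKM in the EWSR1::FLI1 high libraries and at 2.91, 4.29 and 3.68 FPKM in the EWSR1::FLI1 low libraries. FLI1 fell in every treated library, by 1.57 on the log2(FPKM + 1) scale (SE 0.182, n = 3 per group, limma adjusted p = 0.000676). Of 8 Ewing sarcoma markers, all were lower with doxycycline, against 8492 of the 15504 genes tested with a log2 fold change below 0. In limma 6 were called lower at an adjusted p under 0.01, against 3.37% of all genes. Among them was NR0B1 (log2 fold change -2.56, limma adjusted p = 0.00172). Of 10 markers of blood, endothelial and epithelial cells, only 2 reached a mean of 0.5 FPKM, PECAM1 and EPCAM. PECAM1, an endothelial adhesion molecule, was at 0.278 to 0.366 FPKM in untreated and 0.879 to 1.56 FPKM in treated libraries (log2 fold change 0.66, limma adjusted p = 0.0333), and voom called it higher. EPCAM was at 0.327 to 0.876 FPKM over the 6 libraries. EWSR1, the 5′ partner, was 0.50 lower on the log2 scale but did not pass the test (limma adjusted p = 0.159).

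The 10 ER genes were higher in EWSR1::FLI1 low replicates 2 and 3 than in every untreated library, whereas EWSR1::FLI1 low replicate 1 stayed close to the untreated level. All 10 had a positive log2 fold change over the 6 libraries (median 0.58, against -0.05 over the 15504 genes tested), but 0 of 10 passed an adjusted p of 0.01 in limma. In the same comparison 4.51% of all genes were called higher and 3.37% lower. At an unadjusted p under 0.05, 6 of the 10 were higher, against 15.6% of all genes, and voom on the recovered reads called 0. At an adjusted p under 0.05, HERPUD1 and DNAJB9 were called, where 9.87% of all genes were called higher. Without EWSR1::FLI1 low replicate 1, 8 of the 10 were called higher at 0.01, against 10.2% of all genes, and the median was 0.86. That replicate is the library in which these genes were lowest among the treated ones. Leaving out any other single library gave 0 of 10 called. These are RNAs of whole cultures, so a change in every cell and a change in the share of responding cells cannot be told apart.

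**Figure D1:**
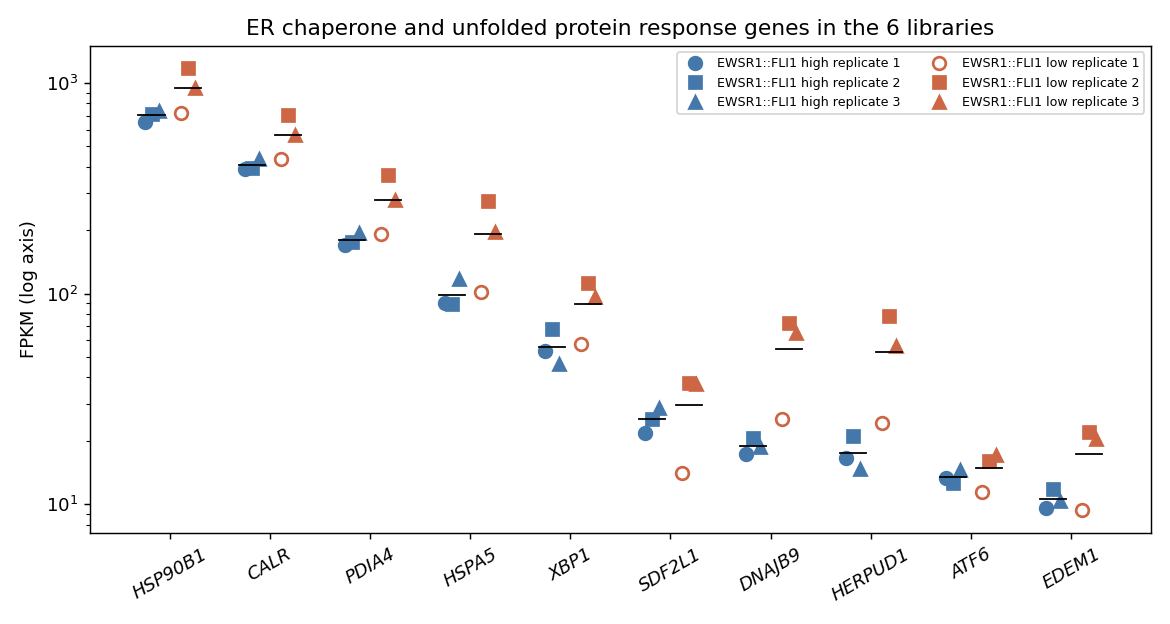
FPKM of the 10 ER genes in each of the 6 libraries, on a log axis, with 1 symbol per library and the group mean drawn as a line. The points of EWSR1::FLI1 low replicates 2 and 3 lie above all 3 untreated points in 10 of 10 genes, against 28.6% of all genes. Those of replicate 1 do so in 2 of 10, against 4826 of the 15504 genes tested.

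By mean FPKM, the order in untreated cells was HSP90B1 (700.2 ± 41.9, SD, n = 3), CALR (408 ± 25.7), PDIA4 (179.9 ± 12.2), HSPA5 (98.8 ± 16.4), XBP1 (55.9 ± 11.1), SDF2L1 (25.3 ± 3.5), DNAJB9 (18.9 ± 1.68), HERPUD1 (17.4 ± 3.34), ATF6 (13.5 ± 1.00) and EDEM1 (10.6 ± 1.12). Of the neighbours in this order, DNAJB9 and HERPUD1 overlapped between libraries, and HERPUD1 and ATF6 met at 14.6. With doxycycline the order was the same for the first 5, and DNAJB9 (54.3 ± 25.4) and HERPUD1 (53.1 ± 27.2) stood above SDF2L1 (29.6 ± 13.5), with EDEM1 (17.3 ± 6.91) and ATF6 (14.9 ± 3.08) last. The SD of the treated libraries exceeded that of the untreated ones in each of the 10 genes.

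HSPA5 (chr9:127997132-128003661) is the main HSP70 chaperone of the ER lumen. It was at 89.8, 88.8 and 118 FPKM in the untreated libraries, and at 102, 276 and 197 FPKM in the EWSR1::FLI1 low libraries. Replicates 2 and 3 were 2.79 and 1.99 times the untreated mean and replicate 1 was 1.03 times, inside the untreated range, so the groups overlapped. The log2 fold change was 0.85 (SE 0.331, limma adjusted p = 0.106), and it was 1.24 without EWSR1::FLI1 low replicate 1 (limma adjusted p = 0.00222) and 0.53 without replicate 2 (limma adjusted p = 0.287).

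HSP90B1 (GRP94, chr12:104323885-104347709) is the HSP90 of the ER and folds integrins and secreted growth factors. It had the highest level of the 10, with 654, 709.7 and 737 FPKM in untreated cells and 719, 1176 and 949 FPKM with doxycycline. Only replicate 1 lay inside the untreated range. The log2 fold change was 0.41 (SE 0.185, limma adjusted p = 0.155), with 0.59 without replicate 1 (limma adjusted p = 0.00827) and 0.24 without replicate 2 (limma adjusted p = 0.417). Its processed pseudogene HSP90B2P was listed at 4.56 to 11.3 FPKM, so reads of near-identical copies may have been divided between these symbols.

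CALR (calreticulin, chr19:13049392-13055303) is a lectin chaperone that binds glycoproteins and calcium, and PDIA4 (ERp72, chr7:148700154-148725754) is a protein disulfide isomerase. CALR was at 391, 395 and 438 FPKM in untreated cells and at 433, 702 and 567 FPKM with doxycycline. PDIA4 was at 170.2, 176 and 194 FPKM in untreated cells and at 191, 365 and 278 FPKM with doxycycline. For each gene, replicates 2 and 3 were above all untreated libraries and replicate 1 was among them. The log2 fold change was 0.45 for CALR (SE 0.190, limma adjusted p = 0.131) and 0.58 for PDIA4 (SE 0.233, limma adjusted p = 0.116). Without replicate 1 it was 0.63 for CALR (limma adjusted p = 0.00742) and 0.82 for PDIA4 (limma adjusted p = 0.00418). Without replicate 2 it was 0.28 for CALR (limma adjusted p = 0.370) and 0.36 for PDIA4 (limma adjusted p = 0.338).

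DNAJB9 (ERdj4, chr7:108210311-108215294) and SDF2L1 (chr22:21996591-21998588) are partners of HSPA5, the first a J-domain cochaperone that also represses IRE1, the second a component of ER chaperone complexes. DNAJB9 was at 17.4, 20.7 and 18.6 FPKM in untreated cells and at 25.3, 72.8 and 64.9 FPKM with doxycycline. Every treated library was above every untreated one. Its log2 fold change was 1.34 (SE 0.358, limma adjusted p = 0.0309), with 1.81 without replicate 1 (limma adjusted p = 0.000103) and 1.07 without replicate 2 (limma adjusted p = 0.0830). SDF2L1 was at 21.8, 25.4 and 28.8 FPKM in untreated cells and at 14.0, 37.7 and 37.2 FPKM with doxycycline. Here replicate 1 was the lowest of all 6 libraries while replicates 2 and 3 were the highest. The log2 fold change of SDF2L1 was 0.10 (SE 0.352, limma adjusted p = 0.875), turned to -0.13 without replicate 2 and -0.12 without replicate 3, and was 0.55 without replicate 1 (limma adjusted p = 0.0278).

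HERPUD1 (chr16:56966054-56978776) and EDEM1 (chr3:5229331-5261643) act in ER-associated degradation. HERPUD1 organises the ubiquitin ligase complex at the ER membrane, and EDEM1 delivers misfolded glycoproteins to it. HERPUD1 was at 16.6, 21.1 and 14.6 FPKM in untreated cells and at 24.3, 78.3 and 56.7 FPKM with doxycycline. The groups did not overlap, as for DNAJB9, while over all genes tested 17.5% had all treated libraries above all untreated ones. HERPUD1 had the largest log2 fold change of the 10, 1.42 (SE 0.380, limma adjusted p = 0.0317), with 1.89 without replicate 1 (limma adjusted p = 0.000443) and 1.07 without replicate 2 (limma adjusted p = 0.0775). EDEM1 was at 9.59, 11.8 and 10.4 FPKM in untreated cells and at 9.36, 22.0 and 20.5 FPKM with doxycycline. Replicate 1 was below the untreated range. The log2 fold change of EDEM1 was 0.58 (SE 0.298, limma adjusted p = 0.207), with 0.95 without replicate 1 (limma adjusted p = 0.00259) and 0.37 without replicate 2 (limma adjusted p = 0.478).

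XBP1 (chr22:29190543-29196585) and ATF6 (chr1:161736088-161947364) encode the transcription factors of the branches themselves. XBP1 was at 53.4, 68.0 and 46.2 FPKM in untreated cells and at 57.8, 113 and 95.9 FPKM with doxycycline. Its log2 fold change was 0.63 (SE 0.271, limma adjusted p = 0.140), with 0.90 without replicate 1 (limma adjusted p = 0.00766) and 0.43 without replicate 2 (limma adjusted p = 0.376). The gene-level value sums spliced and unspliced XBP1 mRNA, so splicing by IRE1 is not analysed here. ATF6 was at 13.3, 12.6 and 14.6 FPKM in untreated cells and at 11.4, 16.1 and 17.2 FPKM with doxycycline. Its log2 fold change was 0.12 (SE 0.199, 95% interval -0.34 to 0.57, limma adjusted p = 0.727) and it was not called without replicate 1 either (0.29, limma adjusted p = 0.163), and its value was 0.05 without replicate 2 and 0.01 without replicate 3. ATF6 is activated by cleavage of its protein, which mRNA levels do not show.

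**Figure D2:**
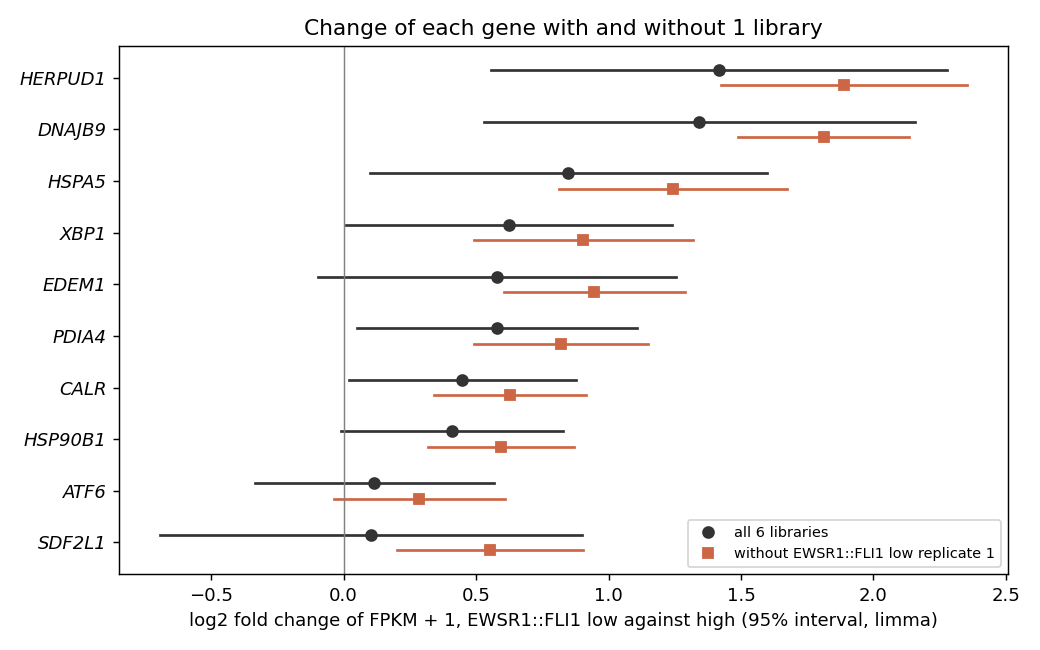
Log2 fold change on the log2(FPKM + 1) scale of each ER gene with its 95% limma interval, over all 6 libraries and without EWSR1::FLI1 low replicate 1. Over 6 libraries the estimates run from 0.10 (SDF2L1) to 1.42 (HERPUD1), and all 10 are larger without that replicate.

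The split among the treated libraries was shared by the 10 genes. Replicates 2 and 3 exceeded every untreated library in 10 of 10 genes, against 28.6% of all genes tested. Replicate 1 was the lowest treated library in 10 of 10, against 56.4% of all genes, and replicate 2 was the highest in 9 of 10, against 26.2%. In 8 of 10 genes replicates 2 and 3 were above the untreated range and replicate 1 was not, against 11.0% of all genes. Replicate 1 was inside the untreated range in 5 genes, below it in 3 (SDF2L1, ATF6, EDEM1) and above it in DNAJB9 and HERPUD1. In many other genes replicate 1 lay nearer to the other treated libraries. Among 1857 genes that moved by more than 1 on the log2 scale in the mean of replicates 2 and 3, the median change in replicate 1 was 0.69 of theirs, and for the 3 ER genes past that limit the ratio was 0.05 (HSPA5), 0.22 (DNAJB9) and 0.25 (HERPUD1). In FPKM as deposited, FLI1 was also lowest in replicate 1 (2.91, against 4.29 and 3.68 in replicates 2 and 3). The part of its lower depth and summed FPKM in these values was not tested, but with all libraries set to equal summed FPKM, 4 of the 10 (DNAJB9, HERPUD1, PDIA4 and CALR) were called higher, against 7.89% of all genes. After quantile normalization 3 were called (6.4% of all genes), and with sample quality weights 8 (16.0% of all genes).

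Secretory load was read from 65 genes of secreted and matrix proteins (collagens, fibronectin, IGF-binding proteins, matrix proteases and the like), of which 62 passed the filter on low values. Of these, 45 were called higher and 0 lower, against 4.51% of all genes called higher, and their median log2 fold change was 2.07. The list was chosen with earlier results of these data known. These counts and the cargo sums may thus partly follow from that choice, and they are descriptive. The largest increases were in MGP, a matrix calcification inhibitor (6.33), and in the IGF-binding proteins IGFBP7 (6.04) and IGFBP3 (5.40). The summed FPKM of the 65 genes was 1778, 1868 and 1923 in untreated cells and 4962, 8215 and 6412 with doxycycline, a ratio of means of 3.52. Much of the sum came from MMP1, a collagenase, and FN1, fibronectin, which are named here for their share and made up 41.5% to 46.3% of it in untreated and 21.9% to 33.2% in treated cells. MMP1 alone was at 300.4 FPKM in replicate 1, below its untreated range of 345 to 572. Without these genes the sums were 1003 to 1125 in untreated and 3876 to 5485 in treated cells. The groups did not overlap, and replicate 1 was raised as well (two-sided exact permutation p = 0.1, the smallest that 3 against 3 libraries can give).

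The 6 ER chaperones HSPA5, HSP90B1, PDIA4, CALR, DNAJB9 and SDF2L1 summed to 1345, 1416 and 1533 FPKM in untreated cells and to 1485, 2629 and 2093 FPKM with doxycycline, a ratio of means of 1.45 (exact permutation p = 0.2). Most of the sum came from HSP90B1 and CALR, at 700 and 408 of the untreated mean of 1431 FPKM. Their treated to untreated ratios of means were 1.35 and 1.39, against 1.17 (SDF2L1), 1.54 (PDIA4), 1.94 (HSPA5) and 2.87 (DNAJB9). Chaperone FPKM per cargo FPKM was 0.756, 0.758 and 0.797 in untreated cells and 0.299, 0.320 and 0.326 with doxycycline. Thus the ratio was lower in all 3 treated libraries, 0.409 times the untreated mean, with no overlap (exact permutation p = 0.1). It rests on the same choice of cargo genes, made with earlier results of these data known. Replicate 1 did not stand apart in this ratio, since its cargo sum and its chaperone sum were both the lowest of the treated libraries. As a share of all FPKM in a library, the 6 chaperones took 0.402%, 0.414% and 0.419% in untreated cells. With doxycycline they took 0.580%, 0.777% and 0.583% (exact permutation p = 0.1). This share is divided by the library total, which was lowest in replicate 1 (255956 against 334614 to 366060 FPKM). On that scale replicate 1 was above the untreated range too, and close to replicate 3. These scales place replicate 1 differently, at the untreated level in FPKM as deposited, and above it as a share of the library.

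**Figure D3:**
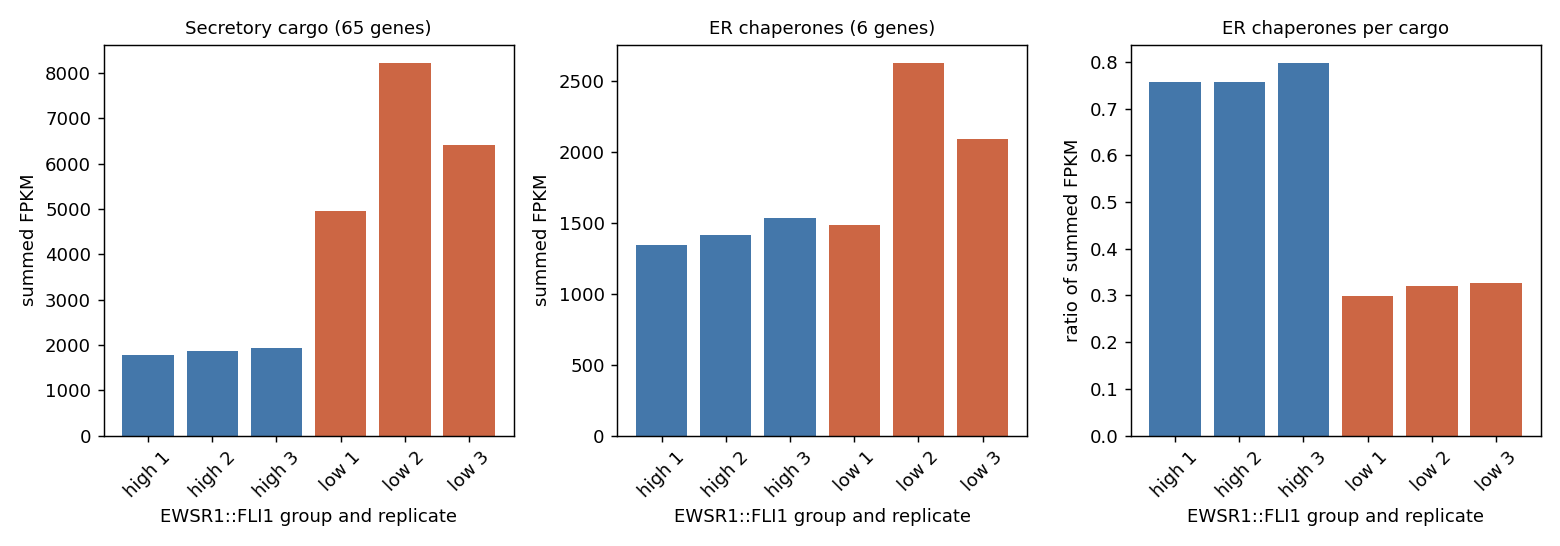
Summed FPKM of 65 secretory cargo genes, summed FPKM of 6 ER chaperones, and chaperone per cargo FPKM, with 1 bar per library starting at 0. The cargo sums of the treated libraries (4962 to 8215) are separated from those of the untreated ones (1778 to 1923), while the chaperone sum of replicate 1 (1485) lies within the untreated range of 1345 to 1533.

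Other ER folding enzymes and chaperones were also higher in replicates 2 and 3. Of 28 genes, all 28 in replicate 2 and 26 in replicate 3 were above every untreated library, and 13 were so in replicate 1. Of the 15504 genes tested, 4826, 5369 and 6039 were so in replicates 1, 2 and 3. Over the 6 libraries 26 of the 28 had a positive log2 fold change (median 0.48). In limma 2 of the 28 were called higher and 0 lower, against 4.51% of all genes called higher. These were CRELD1 (1.04) and FKBP7 (0.87), a disulfide isomerase and a prolyl isomerase. Without EWSR1::FLI1 low replicate 1, 15 of the 28 were called higher, against 10.2% of all genes. The median log2 ratio of this list to the untreated mean, taken on FPKM + 1, was 0.06 in replicate 1, 0.71 in replicate 2 and 0.70 in replicate 3. The enzymes and chaperones of collagen folding differed in replicate 1, with medians of 0.46, 1.18 and 1.08. Of these 16 genes 5 were called higher and 0 lower over the 6 libraries (median 0.90), against 4.51% of all genes called higher. P4HA2, a prolyl 4-hydroxylase subunit, was at 4.37, 5.98 and 6.11 FPKM in untreated cells and at 28.9, 82.4 and 56.2 FPKM with doxycycline (log2 fold change 3.02, limma adjusted p = 0.000612). FKBP10 (1.71) and P3H1 (1.36), which modify procollagen, followed.

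**Figure D4:**
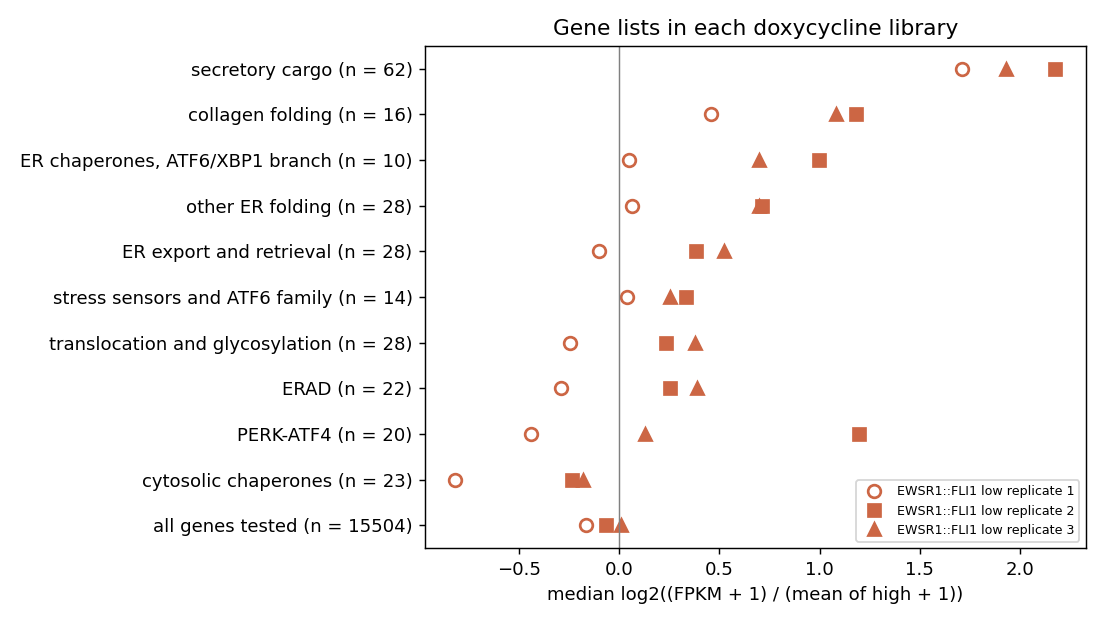
Median log2 ratio to the untreated mean for each gene list in each treated library, with 1 point per library. Medians of the 10 ER genes are 0.05, 1.00 and 0.70 in replicates 1, 2 and 3, and those of the cargo list are 1.71, 2.18 and 1.93.

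Of 14 sensors and factors of the unfolded protein response tested, 2 were called higher and 0 lower (median 0.22), where 4.51% of all genes were called higher: CREBRF (1.47), a regulator of the CREB3 factor, and CREB3L2 (0.83), a membrane-bound factor that activates secretory pathway genes. The related CREB3L1 had a log2 fold change of 1.00 (limma adjusted p = 0.0110), at 0.858 to 1.69 FPKM in untreated and 2.53 to 3.87 FPKM in treated cells. PERK (EIF2AK3) was at 10.9, 11.04 and 9.53 FPKM in untreated cells and at 14.5, 19.8 and 19.7 FPKM with doxycycline (0.72, limma adjusted p = 0.0293). IRE1 (ERN1) was at 1.02, 1.504 and 1.45 FPKM in untreated cells and at 1.35, 3.29 and 0.945 FPKM with doxycycline (0.22, limma adjusted p = 0.627), with no common direction in the treated libraries.

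In the PERK-ATF4 list of 20 genes, 1 was called higher and 0 lower (median 0.43), where 4.51% of all genes were called higher. Without EWSR1::FLI1 low replicate 1, 4 of the 20 were called higher, against 10.2% of all genes. The median ratios of the treated libraries were far apart, -0.44, 1.20 and 0.13. Over the 6 libraries the gene called was NUPR1, a small stress-induced chromatin protein. It was at 1.67, 2.48 and 2.12 FPKM in untreated cells and at 40.2, 88.5 and 55.8 FPKM with doxycycline (log2 fold change 4.27, limma adjusted p = 5.56e-05). NUPR1 was raised in replicate 1 as well, unlike most of the list. ATF4 itself was at 184, 208 and 169 FPKM in untreated cells and at 143, 218 and 143 FPKM with doxycycline (-0.18, limma adjusted p = 0.585). DDIT3 (CHOP), the proapoptotic factor downstream of ATF4, was at 20.5, 26.6 and 19.8 FPKM in untreated cells and at 16.6, 44.1 and 38.2 FPKM with doxycycline (0.44, limma adjusted p = 0.395), with replicate 1 below and replicates 2 and 3 above the untreated range.

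**Figure D5:**
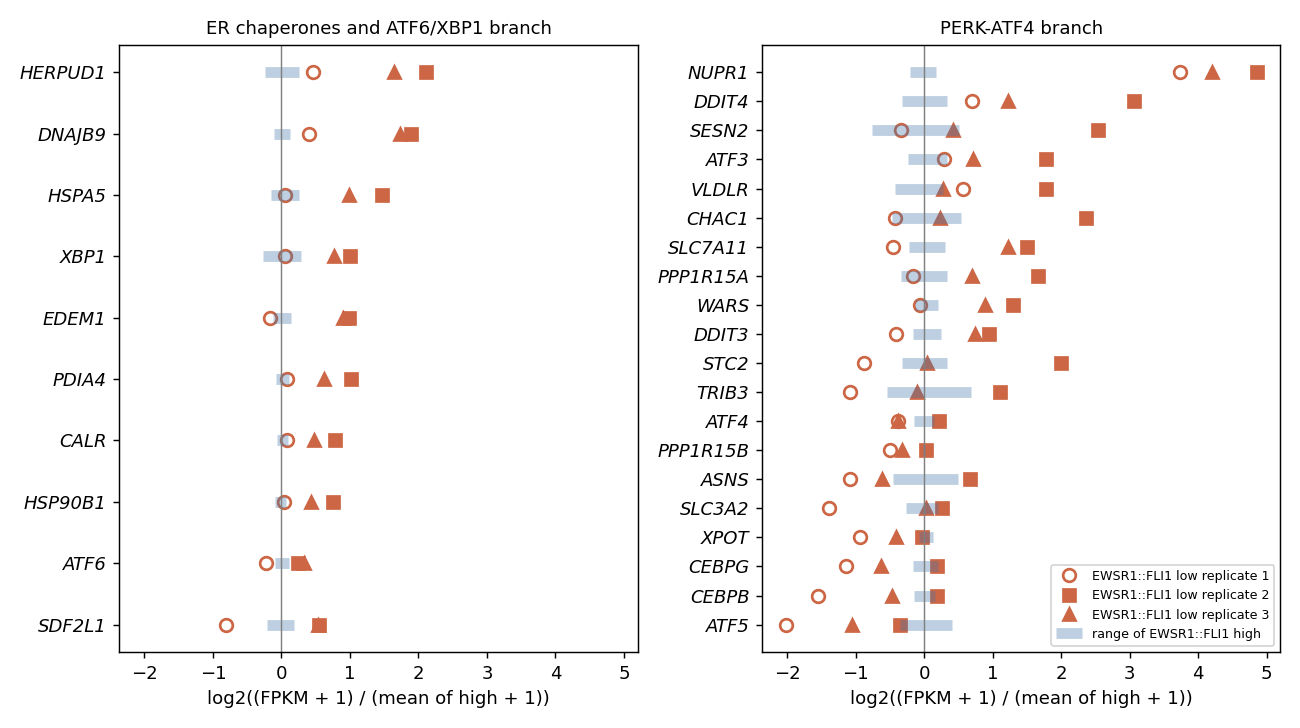
Log2 ratio to the untreated mean in each treated library for the ER chaperones and the ATF6 and XBP1 branch genes, and for the 20 genes of the PERK-ATF4 list, with the range of the untreated libraries as a bar. NUPR1 is raised in all 3 treated libraries, while ATF4 lies below the untreated mean in replicates 1 and 3.

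Genes for other steps of the secretory pathway had smaller medians. At an adjusted p of 0.01, limma called 4.51% of all genes higher and 3.37% lower. At an unadjusted p under 0.05, 15.6% of all genes were higher. Without EWSR1::FLI1 low replicate 1 it called 10.2% of all genes higher and 5.41% lower. Of 22 ER-associated degradation genes tested, 0 were called in either direction at an adjusted p of 0.01 in limma (median 0.17), 5 had an unadjusted p under 0.05 (4 higher and 1 lower), and voom called 1 lower. In the same list 5 were called higher and 1 lower without replicate 1. Of 28 translocation and glycosylation genes, 0 were called in limma (median 0.12) and 0 by voom, 2 had an unadjusted p under 0.05 (1 higher and 1 lower), and 4 were called higher and 1 lower without replicate 1. Of 28 ER export and retrieval genes, 2 were called higher and 0 lower (median 0.27): KDELR3 (2.12), a receptor that returns ER chaperones from the Golgi, and SEC24D (1.18), a coat protein of export vesicles. KDELR3 was at 6.18, 4.63 and 5.11 FPKM in untreated cells and at 16.9, 29.4 and 36.0 FPKM with doxycycline, so its groups did not overlap.

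Chaperones of the cytosol and mitochondria did not share the direction of the ER genes. Of 23 tested, 17 had a log2 fold change below 0 (median -0.39), against 8492 of the 15504 genes tested (median -0.05). In limma 0 were called lower, against 3.37% of all genes, and voom called 1 lower. At an unadjusted p under 0.05, 9 were lower, a count whose share over all genes is not given here. CRYAB, a small heat shock protein, was called higher (3.91), where 4.51% of all genes were called higher. As a share of all FPKM they took 1.02%, 1.06% and 1.13% in untreated cells and 0.762%, 0.930% and 0.917% with doxycycline (exact permutation p = 0.1). In each treated library the ER share was thus above, and this share below, the untreated range.

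Across the 6 libraries, the log2(FPKM + 1) values most like those of HSPA5 among all genes tested were those of AKAP12 (Pearson r = 0.998), SNX9 (0.997), STK10 (0.996), RILPL1 (0.996) and FAM214B (0.996). CALR and PDIA4 ranked 9 and 10 in this order, HSP90B1 ranked 55, and SDF2L1 ranked 2800 (r = 0.744). These coefficients are descriptions over 6 points that fall into 2 groups and share library effects.

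The ERSE and ERSE-II elements shown above did not separate the 10 genes by size of change. Log2 fold changes ran from 0.10 to 1.42 in the 6 with an element and from 0.12 to 1.34 in the 4 without. Among the 38 other genes with either element, 25 were tested. Of the 25, 2 were called higher (NUCB1 and PLS3, named after their values were seen) and 0 lower, against 4.51% of all genes called higher. The median log2 fold change of the 25 was 0.03, against -0.05 over all genes. Without EWSR1::FLI1 low replicate 1, 5 were called higher, including the ER folding genes CRELD2, ERO1B and HYOU1, against 10.2% of all genes. The ER folding genes CANX (0.30, limma adjusted p = 0.0589) and PDIA6 (0.48, limma adjusted p = 0.0109) also have an ERSE and were not called. The median of the 25 was then 0.17, against -0.03 over all genes.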

How the data were processed

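Total RNA was depleted of ribosomal RNA and sequenced as paired ends. Per the labels and the methods of the study, reads were aligned with STAR (2.5.0b) to GRCh37, and Cufflinks (2.2.1), DESeq2 (1.6.3) and bedtools (2.17.0) are named; the strand setting of counting is not given in the sources used here. The authors deposited FPKM per gene symbol and library, already scaled between libraries, and a mean normalized signal per gene. A second table also holds fold changes, standard errors and p-values of the authors' comparison, which were not used. Combining the FPKM and the deposited mean signal returned whole reads for 100% of values above 0 (tolerance 0.1 read), and voom on these reads called 1729 genes.

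The 15504 genes whose FPKM averaged 0.5 or more entered a test on log2(FPKM + 1) with limma (3.58.1, R 4.3.3; eBayes with trend, no block), with Benjamini-Hochberg adjustment over all of them and a call at an adjusted p under 0.01. Fold changes on this scale understate those of low genes. Sums per library were compared by a two-sided exact permutation test. Gene positions are from GENCODE on GRCh37 and promoter windows from RefSeq. The script was tested on simulated data. At an adjusted p under 0.01 it recovered 37.5% of 200 genes moved by 1.5 on the log2 scale. It called 0 of the unchanged genes. A gene that was not called may thus still have changed. The titles call the replicates experiments and the design text calls them clones, so p-values measure only the spread between these libraries, which may be technical. Recovered depth ran from 6980361 to 16658933 reads per library, and intervals on it would cover counting error only.

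The 10 genes and all gene lists were chosen with earlier results of these data known. Of 279 list symbols, 8 were found under a newer symbol. Named were the 10 genes, FLI1, EWSR1 and NR0B1, at most the 3 largest called increases and decreases of each list, ATF4, DDIT3, ERN1, EIF2AK3 and CREB3L1, and the 5 genes most like HSPA5. The alternatives tried were other pseudocounts, filters, scalings, priors, weights and thresholds, the replicate number as a block, and leaving out each library; equal summed FPKM was added after seeing the data. Same-numbered libraries correlated in their deviations from the group means at 0.27, 0.09 and 0.12, and libraries of different number at -0.29 to 0.19. Whether the numbers pair the libraries is not settled by these values. The main fit did not pair them, and a fit with the number as a block is given at the end.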

Additional observations from a re-analysis of the deposited data

How the results depend on the processing

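The 1222 genes called over all features became 124 with no filter on low values, 1992 after quantile normalization, 2043 at equal summed FPKM, 4745 with sample quality weights (0.172 for EWSR1::FLI1 low replicate 1, the lowest) and 3067 at an adjusted p under 0.05. The 0 ER genes called higher became 4 at equal summed FPKM, 3 after quantile normalization, 8 with sample quality weights (where 16.0% of all genes were called higher) and 2 at an adjusted p under 0.05. The 12 genes called in the other ER lists became 46, 51, 72 and 31 under the same alternatives, and 2 with no filter. FLI1 kept its log2 fold change of -1.57 with no filter, but its limma adjusted p was 0.0157. By geometric mean in place of the sum, the log2 change of the cargo was 2.24 (1.78 by sum) and that of chaperone per cargo -1.62 (-1.29 by sum). Equal summed FPKM moved the median log2 fold change of all genes from -0.05 to 0.05 and that of the 10 ER genes from 0.58 to 0.71. The causes of these shifts were not tested. Leaving out 1 library at a time gave 475 to 2334 genes called, 0 to 8 ER genes, 4 to 53 list genes, and -0.13 to 0.55 for SDF2L1 (-0.13 without EWSR1::FLI1 low replicate 2 and -0.12 without replicate 3). The 2334, the 8 and the 53 came without EWSR1::FLI1 low replicate 1. Each other library left out gave 0 ER genes called higher. No ER gene was called lower under any alternative run. Median-ratio scaling gave the same factor (1.02) for each library, so by its construction it moved values only through the pseudocount, and no count of calls changed.

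A replicate block (the number in the titles as a term of the fit) gave 1702 called genes, among them 2 of the 10 ER genes, HERPUD1 (limma adjusted p = 0.0094) and DNAJB9 (0.0097), against 5.91% of all genes called higher, and 16 list genes. Of the untreated libraries, 1 and 2 correlated best with the treated library of their own number (0.27 and 0.09), and 3 correlated best with treated library 2 (0.19). The block changed no other call among the 10 ER genes and FLI1. Outliers were not assessed in groups of 3.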
